A study of Mus musculus with 9 samples.

Results

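Type 2 immunity in neck skin was followed through 10 genes: the cytokines Il4 and Il13, the receptor chains Il4ra and Il13ra2, the chemokines Ccl11, Ccl17 and Ccl24, the chemokine receptor Ccr4, and the target genes Arg1 and Retnla. They were listed by symbol for their known roles, with earlier results of these data known, and each was represented by 1 transcript cluster of the array, the set of probes that reads 1 gene. All 10 were found, among 30142 named genes. The samples were whole extracts of neck skin from male C57BL/6 mice, an inbred strain, aged 6 to 8 weeks, with 3 biological replicates in each of 3 groups and 1 array per replicate. Control mice had skin labelled healthy, and the sources used here do not say if any shaving or acetone was applied to it. Mice of the oxazolone group were sensitised on the abdomen with 2.0% oxazolone, a synthetic hapten, and challenged 5 times on the nape with 0.5% oxazolone in 40 µl of acetone, from 5 days after sensitisation until day 8 of the challenge phase. Mice of the urushiol group were treated on the same schedule and at the same strengths with urushiol, an allergen from the sap of poison ivy. Skin of the challenged mice was taken 4 hours after the last challenge, and the series was built to compare immune responses and itch between these models of allergic contact dermatitis.

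Type 2 responses are driven by interleukins 4 and 13, which are released by helper T cells, innate lymphoid cells, basophils and mast cells. Both bind receptors that contain the chain encoded by Il4ra and act through the transcription factor STAT6, while the chain encoded by Il13ra2 binds interleukin 13 and is widely described as a decoy. In skin, their known outputs include chemokines that draw eosinophils and T cells with the receptor CCR4, and, in macrophages, the genes Arg1 and Retnla.

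The values are log2 expression levels, deposited by the authors, and a difference of 1 is a doubling if the scale is a true log2 scale. Across the whole file the values ran up to 19.93, past the limit of 16 (log2) of common scanners, and no source used here states the step behind this, so a difference need not be the log2 ratio of 2 RNA amounts. The highest value of the 10 genes was 14.06. Control array 3 stood apart: its r across genes was 0.978 to 0.979 with the other controls, which reached 0.995 with each other, and 0.969 to 0.978 with the challenged arrays. Its mean over 9 hair follicle markers was 12.16, against 6.23 and 6.62 on the other controls. These markers averaged 11.09 to 13.88 in oxazolone and 10.30 to 11.28 in urushiol skin, so control array 3 lay nearer to the challenged arrays there. Keratinocyte markers averaged 15.27 to 15.96 in control, 16.02 to 16.54 in oxazolone and 16.48 to 16.64 in urushiol skin, so every challenged array lay above every control. Skeletal muscle markers averaged 16.05 to 18.14 in control, 6.94 to 9.24 in oxazolone and 11.38 to 12.36 in urushiol skin.

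The receptors Il4ra and Il13ra2 and the target gene Arg1 rose in both kinds of challenged skin, while Retnla and Ccr4 fell in both. Ccl11 rose in oxazolone skin and lay just short of the threshold in urushiol skin. Il4, Il13, Ccl17 and Ccl24 did not pass the test in either comparison. A difference was called at an adjusted p under 0.05, by limma with Benjamini-Hochberg adjustment over all 30142 genes. Among the 10 genes, oxazolone skin had 4 higher and 2 lower by that rule, where 16.6% of all genes were called (9.63% higher and 6.92% lower). In urushiol skin 3 were higher and 2 lower, where 16.4% of all genes were called (9.96% higher and 6.43% lower). The median difference of the 10 genes was 0.88 for oxazolone and 0.58 for urushiol, beside 0.057 and 0.04 over all genes. Both comparisons use the same control arrays. For 9 of the 10 genes in each comparison the challenged arrays did not overlap the control arrays, 7 of them higher and 2 lower. That held for 32.8% of all genes with oxazolone (21.3% higher and 11.5% lower) and for 32.9% with urushiol (21.1% higher and 11.8% lower). In whole skin, fewer cells of a type and less RNA per cell cannot be told apart. In the text, ± after a difference is its standard error, from groups of n = 3 arrays.

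**Figure D1:**
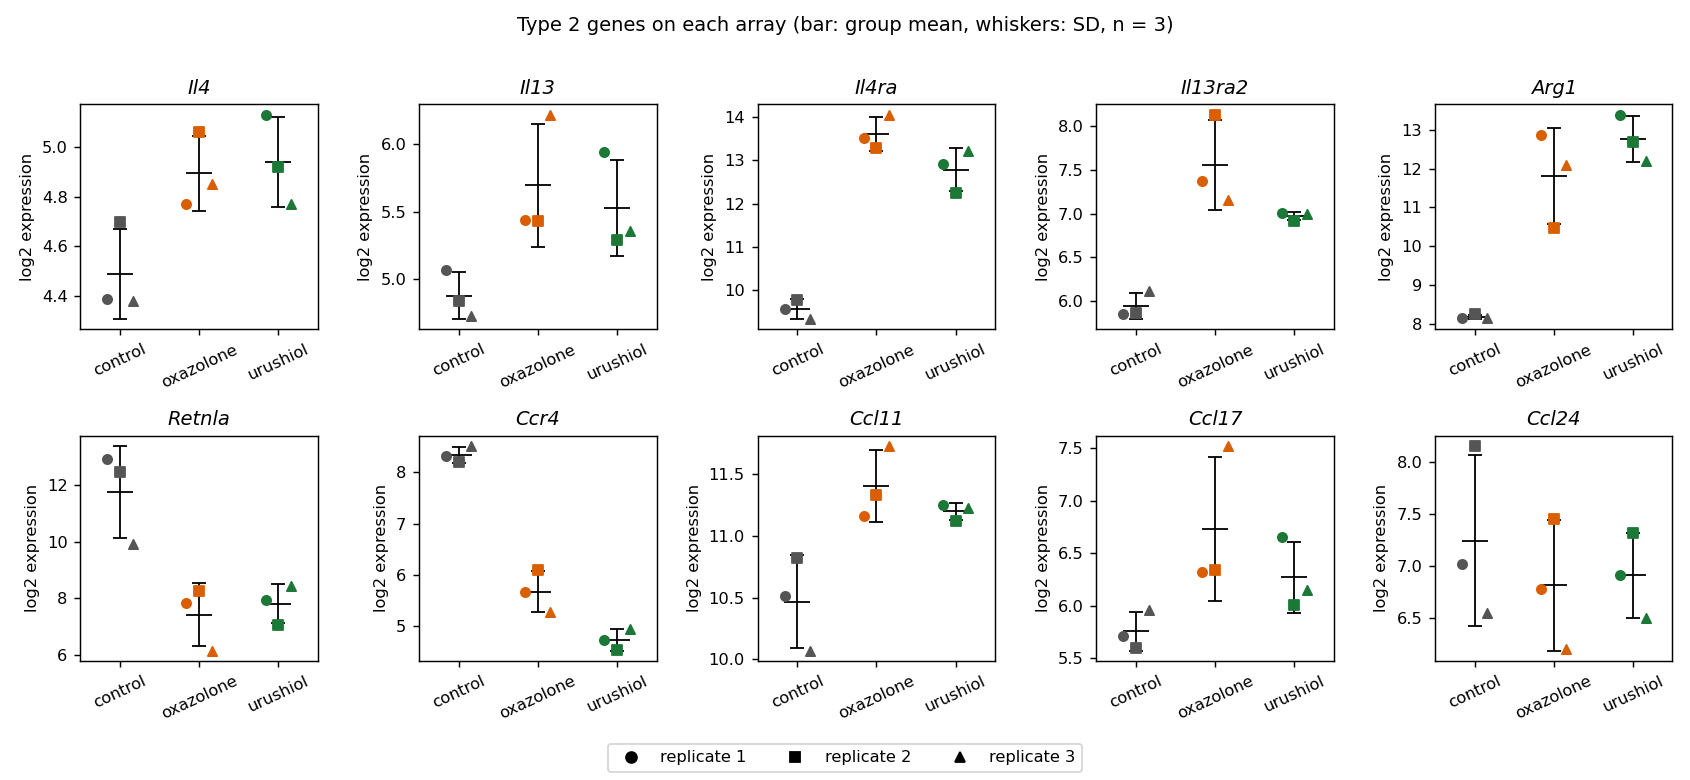
Log2 expression (y axes) of each of the 10 genes in control, oxazolone and urushiol skin (x axes), with 1 point per array, marker shape for the replicate number, and bars for the group mean ± SD (n = 3). Il4ra and Arg1 lie far above control on all 6 challenged arrays, Retnla and Ccr4 lie below control on all 6, and Ccl24 overlaps between the groups.

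**Figure D2:**
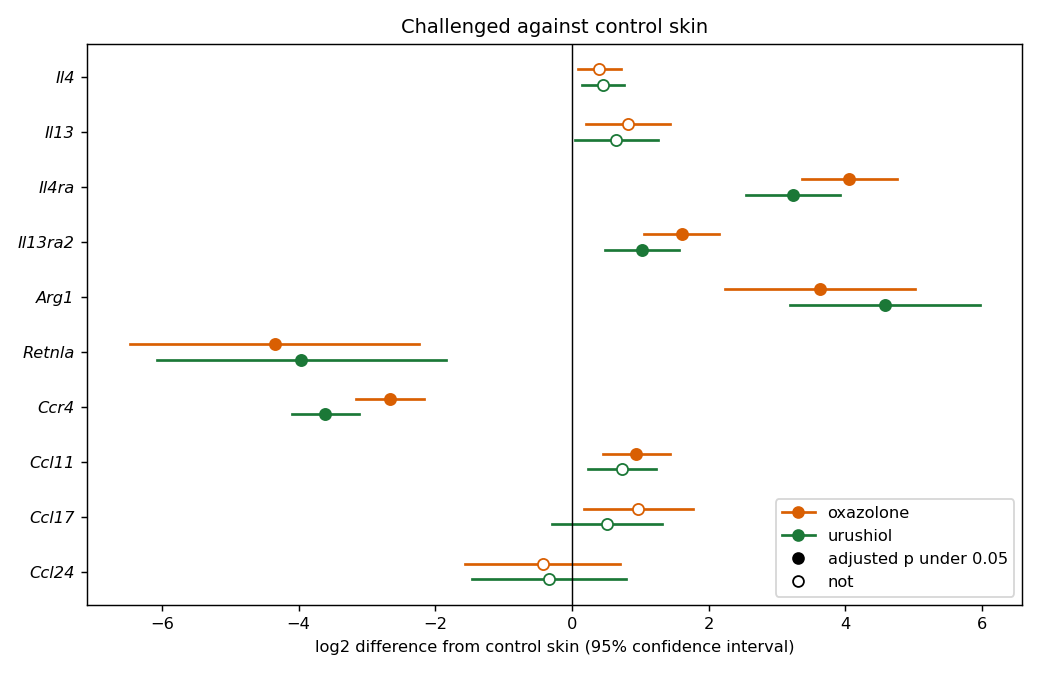
Log2 difference from control skin (x axis) with its 95% confidence interval for each gene (y axis), in oxazolone (orange) and urushiol (green) skin, filled where the adjusted p is under 0.05. Il4ra, Il13ra2 and Arg1 lie to the right and Retnla and Ccr4 to the left with filled points for both allergens, and Ccl11 is filled for oxazolone alone.

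The stretches before the start sites of these genes show which of them carry a known recognition pattern of the pathway. RefSeq start sites of the mouse build GRCm38.p6 were at hand for 7 of the 10 genes, in 8 windows, and the promoters of Arg1, Ccl11 and Ccl24 were not analysed here. The 250 bases before each start were searched on both strands for TTCNNNNGAA, the spacing that STAT6 prefers, for TTCNNNGAA, the spacing of other STAT factors, and for TGANTCA, the pattern of AP-1. No match in the 8 windows overlapped another. Of 32851 windows over all genes, 5.85% held the first, 7.02% the second and 6.75% the third. The first was found before Retnla, which fell, and before Ccl17 and 1 of the 2 start sites of Il4, which did not pass the test. It lies 145 bases before the start of Retnla, 154 before that of Ccl17 and 167 before that of Il4, counted to the first base of the match. The Ccl17 window also holds the second pattern, 99 bases before its start. The third pattern lies 143 bases before the start of Ccr4, which fell, and 193 before that of Il13ra2, which rose. The windows of Il4ra, Il13 and the other start of Il4 held none of the 3. A match of letters is a description and not evidence of binding. The 5 windows with a match are shown 5′ to 3′ on the strand of the gene, with the matches in capitals. They lie at chr16:48842359-48842608, plus strand (Retnla), chr8:94810203-94810452, plus strand (Ccl17), chr11:53618666-53618915, minus strand (Il4), chr9:114496545-114496794, minus strand (Ccr4), and chrX:147429193-147429442, minus strand (Il13ra2).
Retnla: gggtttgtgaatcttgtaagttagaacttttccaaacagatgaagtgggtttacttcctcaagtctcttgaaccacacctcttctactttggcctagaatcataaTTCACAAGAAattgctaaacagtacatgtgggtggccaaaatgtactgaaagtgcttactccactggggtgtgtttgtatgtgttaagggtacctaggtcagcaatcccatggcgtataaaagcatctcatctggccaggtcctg
Ccl17: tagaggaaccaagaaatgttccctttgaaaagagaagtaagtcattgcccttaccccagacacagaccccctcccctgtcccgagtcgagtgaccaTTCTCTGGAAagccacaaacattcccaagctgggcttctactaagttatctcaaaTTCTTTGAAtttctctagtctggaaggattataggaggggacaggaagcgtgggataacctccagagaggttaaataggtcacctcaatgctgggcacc
Il4: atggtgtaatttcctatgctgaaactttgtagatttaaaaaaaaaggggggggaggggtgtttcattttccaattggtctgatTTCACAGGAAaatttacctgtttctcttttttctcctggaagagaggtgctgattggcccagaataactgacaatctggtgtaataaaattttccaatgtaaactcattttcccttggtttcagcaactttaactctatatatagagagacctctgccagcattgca
Ccr4: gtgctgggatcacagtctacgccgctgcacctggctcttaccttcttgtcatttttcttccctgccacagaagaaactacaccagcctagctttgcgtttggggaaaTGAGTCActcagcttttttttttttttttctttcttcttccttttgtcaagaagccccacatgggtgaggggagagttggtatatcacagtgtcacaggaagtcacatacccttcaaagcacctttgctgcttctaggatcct
Il13ra2: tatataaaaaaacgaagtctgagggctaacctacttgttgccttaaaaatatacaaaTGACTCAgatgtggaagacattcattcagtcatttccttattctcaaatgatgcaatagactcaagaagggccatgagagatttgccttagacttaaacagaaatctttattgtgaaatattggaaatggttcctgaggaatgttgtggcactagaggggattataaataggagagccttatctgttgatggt

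Neither cytokine gene passed the test in either comparison. Il4 encodes interleukin 4, the cytokine that drives the differentiation of type 2 helper cells. It read 4.39, 4.70 and 4.38 on the control arrays, 4.77, 5.06 and 4.85 with oxazolone, and 5.13, 4.92 and 4.77 with urushiol. All 6 challenged arrays lay above the 3 controls, narrowly at the closest points, and the allergen groups overlapped. The difference from control was 0.40 ± 0.13 for oxazolone (adjusted p = 0.0772) and 0.45 ± 0.13 for urushiol (adjusted p = 0.0585), so neither passed. Il13, which encodes interleukin 13, read 5.07, 4.84 and 4.73 in control skin, 5.44, 5.43 and 6.22 with oxazolone, and 5.94, 5.29 and 5.36 with urushiol. Again all challenged arrays lay above the controls, with oxazolone array 3 and urushiol array 1 the highest. The difference was 0.82 ± 0.26 for oxazolone (adjusted p = 0.0739) and 0.65 ± 0.26 for urushiol (adjusted p = 0.136). Il4 lay below the median of all transcript clusters of its array on all 9 arrays and Il13 on 7 of 9, so both were read in the dimmer part of the array. Neither gene was called under any of the 18 alternatives that tested it.

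The 2 receptor chains rose. Il4ra, whose product is shared by the receptors for interleukins 4 and 13, read 9.57, 9.78 and 9.33 on the control arrays, 13.51, 13.29 and 14.06 with oxazolone, and 12.91, 12.24 and 13.22 with urushiol. The 3 groups did not overlap with one another, and the oxazolone arrays lay highest. It rose by 4.06 ± 0.29 with oxazolone (adjusted p = 0.000698) and by 3.23 ± 0.29 with urushiol (adjusted p = 0.00133). Both calls held without each of the 9 arrays in turn. Il13ra2 read 5.85, 5.87 and 6.12 in control skin, 7.37, 8.13 and 7.16 with oxazolone, and 7.01, 6.92 and 6.99 with urushiol. Here too the 3 groups were separate, with the urushiol arrays close together (SD 0.0473) and oxazolone array 2 the highest. It rose by 1.61 ± 0.23 with oxazolone (adjusted p = 0.00661) and by 1.03 ± 0.23 with urushiol (adjusted p = 0.0278). The urushiol call was lost without control array 1 (adjusted p = 0.0874) or 2 (0.0915) and without urushiol array 1 (0.0894), 2 (0.0667) or 3 (0.0816), at differences of 0.98 to 1.05.

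Arg1, the arginase of alternatively activated macrophages that also occurs in stressed epidermis, read 8.15, 8.24 and 8.14 in control skin. It reached 12.87, 10.46 and 12.10 with oxazolone and 13.39, 12.68 and 12.20 with urushiol. Every challenged array lay far above every control array, and oxazolone array 2 was the lowest of the 6. It rose by 3.63 ± 0.59 with oxazolone (adjusted p = 0.0101) and by 4.58 ± 0.59 with urushiol (adjusted p = 0.00436), and both calls held without each array in turn. Of 5 other measured genes of arginine use, 2 rose and 1 fell with oxazolone, and 3 rose and 1 fell with urushiol. Odc1, which turns ornithine into polyamines, rose by 3.58 ± 0.25 and 2.98 ± 0.25, and Arg2, the mitochondrial arginase, by 2.55 ± 0.58 and 2.19 ± 0.58, in the order oxazolone and urushiol. The arginine transporter gene Slc7a2 fell by 1.37 ± 0.17 with oxazolone and fell by 1.29 ± 0.17 with urushiol. Nos2, the inducible nitric oxide synthase that competes for arginine, stood at 0.38 ± 0.18 (adjusted p = 0.192) and -0.02 ± 0.18 (adjusted p = 0.969). Slc7a1, another arginine transporter, rose by 1.97 ± 0.52 with urushiol (adjusted p = 0.0442) and stood at 1.76 ± 0.52 with oxazolone (adjusted p = 0.06).

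Retnla, a secreted product of alternatively activated macrophages that is also made in fat tissue, moved against Arg1. It read 12.92, 12.46 and 9.91 in control skin, 7.82, 8.26 and 6.15 with oxazolone, and 7.93, 7.06 and 8.43 with urushiol. Control array 3 lay well below the other controls and still above every challenged array. Retnla fell by 4.35 ± 0.90 with oxazolone (adjusted p = 0.0213) and fell by 3.96 ± 0.90 with urushiol (adjusted p = 0.0284). Without control array 3 the differences were -5.28 (adjusted p = 0.00273) and -4.88 (adjusted p = 0.00375). For oxazolone, omitting control array 1 (0.0702), control array 2 (0.0756), oxazolone array 1 (0.0567) or oxazolone array 3 (0.065) ended the call, at -3.72 to -4.56. For urushiol, omitting control array 1 (0.0871), control array 2 (0.0962), oxazolone array 1 (0.0504) or any of urushiol arrays 1 (0.084), 2 (0.081) and 3 (0.0624) ended it, at -3.38 to -4.27. Of 10 macrophage markers, 1 rose and 9 did not pass in each comparison, with means of 8.91 to 9.37 over the control arrays, 8.83 to 9.80 with oxazolone and 9.29 to 9.77 with urushiol. Adipocyte markers were lower, with means of 10.89 to 11.71 in control, 9.46 to 9.77 in oxazolone and 9.68 to 10.25 in urushiol skin, and 6 of 8 fell with oxazolone and 5 of 8 with urushiol. Their part in the fall of Retnla was not tested, nor was that of the skeletal muscle markers, all 10 of which fell with each allergen. On control array 3, where Retnla was lowest among the controls, the adipocyte mean of 11.30 lay between the other 2 controls. The muscle mean of 16.05, the macrophage mean of 8.91 and the endothelial mean of 7.98 lay below both. The keratinocyte mean of 15.96 and the hair follicle mean of 12.16 lay above both. The part of these cell types in the low Retnla reading of that array was not tested.

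**Figure D3:**
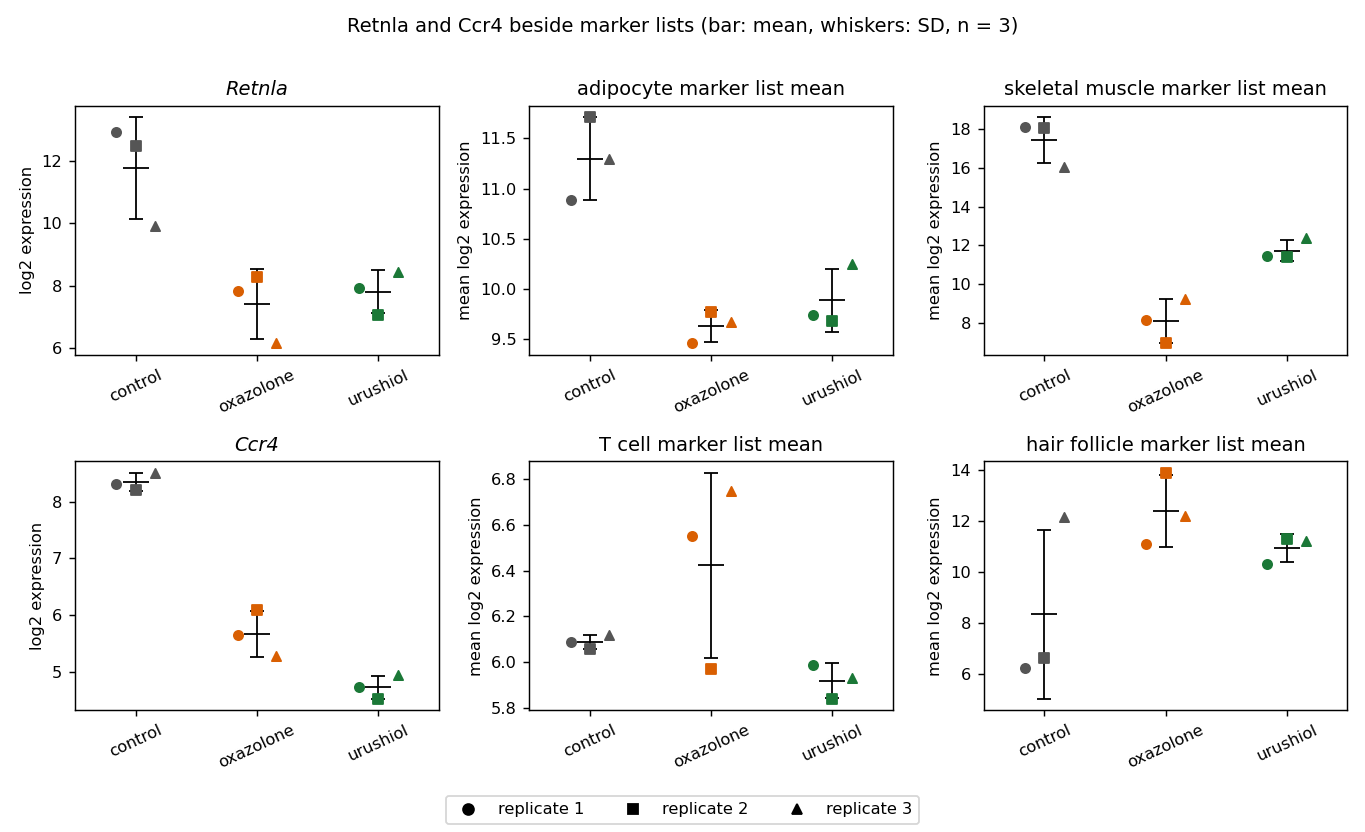
Log2 expression of Retnla and Ccr4 and the mean log2 expression of 4 marker lists (y axes) on each array of the 3 groups (x axes), with marker shape for the replicate number and bars for the group mean ± SD (n = 3). Control array 3 is low for Retnla and for muscle and high for hair follicle, and lies with the other controls for Ccr4, T cell and adipocyte markers.

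Ccr4, the chemokine receptor of type 2 helper cells, regulatory T cells and skin-homing T cells, fell on every challenged array. It read 8.31, 8.20 and 8.51 in control skin, 5.66, 6.09 and 5.28 with oxazolone, and 4.73, 4.53 and 4.94 with urushiol. The groups were separate, with urushiol lowest. The 3 urushiol arrays and oxazolone array 3 lay below the median of all transcript clusters of their array, so the sizes of these differences rest on dim readings. It fell by 2.66 ± 0.21 with oxazolone (adjusted p = 0.000939) and fell by 3.61 ± 0.21 with urushiol (adjusted p = 0.000344), and both calls held without each array in turn. Of 8 measured T cell markers, 2 rose and 1 fell with oxazolone, and 2 rose and 2 fell with urushiol, with means of 6.06 to 6.12 in control, 5.97 to 6.75 in oxazolone and 5.84 to 5.99 in urushiol skin. The T cell receptor chain gene Cd3e fell by 1.10 ± 0.24 with oxazolone and fell by 1.87 ± 0.24 with urushiol, and Cd3g fell by 1.25 ± 0.29 with urushiol, while the co-receptor gene Cd4 rose by 0.88 ± 0.15 with urushiol. Cd8a rose by 2.02 ± 0.55 with oxazolone (adjusted p = 0.0464). Cd5 rose by 0.66 ± 0.11 with oxazolone (adjusted p = 0.0103) and by 0.67 ± 0.11 with urushiol (adjusted p = 0.00905). Ccr8, another receptor of type 2 helper cells, stood at 0.79 ± 0.24 (adjusted p = 0.066) with oxazolone and 0.35 ± 0.24 (adjusted p = 0.382) with urushiol. Cd8a and Ccr8 each lay above the median of their array on 2 of 9 arrays, and Cd4 on 5 of 9. Of 8 dendritic and Langerhans cell markers, 1 fell in each comparison, the Langerhans cell lectin Cd207, by 0.84 ± 0.16 with oxazolone. The part of these cell types in the fall of Ccr4 was not tested.

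Of the ligands of CCR4, Ccl17 read 5.71, 5.60 and 5.96 on the control arrays, 6.32, 6.34 and 7.52 with oxazolone, and 6.65, 6.01 and 6.15 with urushiol. All challenged arrays lay above the controls, and oxazolone array 3 stood far above the rest. The difference was 0.97 ± 0.34 with oxazolone (adjusted p = 0.0932) and 0.51 ± 0.34 with urushiol (adjusted p = 0.355), and without oxazolone array 3 the first was 0.57 (adjusted p = 0.131). Ccl22, the other ligand of CCR4, which shares a chromosome cluster with Ccl17, stood at 0.09 ± 0.13 and -0.10 ± 0.13 (adjusted p = 0.67 and 0.641).

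Among the ligands of the eosinophil receptor CCR3, Ccl11, which encodes eotaxin, read 10.51, 10.82 and 10.07 in control skin, 11.16, 11.33 and 11.73 with oxazolone, and 11.25, 11.12 and 11.23 with urushiol. The challenged arrays lay above the controls and overlapped with each other. It rose by 0.94 ± 0.21 with oxazolone (adjusted p = 0.027) and stood 0.73 ± 0.21 above control with urushiol (adjusted p = 0.0553). Omitting control array 1 (0.0758), oxazolone array 2 (0.0654), oxazolone array 3 (0.0747) or urushiol array 3 (0.052) ended the oxazolone call, at 0.78 to 0.98, as did quantile normalization (0.71, adjusted p = 0.0696). The urushiol difference passed under 3 alternatives, which were the filter on dim genes (0.73, adjusted p = 0.0331), array weights (0.64, adjusted p = 0.0281) and the omission of control array 2 (0.91, adjusted p = 0.0484). Fibroblasts are a known source of this chemokine, and of 7 fibroblast markers 5 fell with oxazolone and 4 with urushiol, with means of 14.77 to 15.05 in control, 13.13 to 14.10 in oxazolone and 13.44 to 14.32 in urushiol skin. Their part in the level of Ccl11 was not tested. Ccl24, which encodes eotaxin 2, read 7.02, 8.15 and 6.55 in control skin, 6.78, 7.45 and 6.20 with oxazolone, and 6.91, 7.31 and 6.50 with urushiol. It was the 1 gene of the 10 whose groups overlapped in both comparisons with control. Its difference was -0.43 ± 0.48 with oxazolone (95% confidence interval -1.56 to 0.70, adjusted p = 0.566) and -0.33 ± 0.48 with urushiol (-1.46 to 0.79, adjusted p = 0.696).

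The receptor gene Ccr3 rose by 1.23 ± 0.29 with oxazolone (adjusted p = 0.0309) and by 1.27 ± 0.29 with urushiol (adjusted p = 0.0284). Ccr3 lay above the median of its array on 4 of 9 arrays, and its control readings of 4.07 to 4.94 were dim. It was the only one of 6 eosinophil markers to pass in either comparison. The list mean was 4.76 to 4.87 over the control arrays, 5.02 to 5.18 with oxazolone and 5.05 to 5.38 with urushiol. The granule protein genes Epx and Prg2 lay below the median of their array on all 9 arrays, at differences of 0.00 ± 0.03 and 0.14 ± 0.07 with oxazolone. Basophils and mast cells are other cells with CCR3 and sources of interleukin 4. Of 4 basophil markers 2 rose with oxazolone and 3 with urushiol, among them the protease gene Mcpt8 by 0.78 ± 0.20 (adjusted p = 0.0371) with oxazolone. Mcpt8 lay above the median of its array on 3 of 9 arrays. Of 8 mast cell markers 2 rose and 1 fell in each comparison. Of 7 neutrophil markers 6 rose with each allergen, and of 6 endothelial markers 1 fell with oxazolone and none was called with urushiol. Of 8 keratinocyte markers 3 rose and 1 fell with oxazolone, and 4 rose and 1 fell with urushiol.

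Other genes of the pathway, 63 measured of 75 listed by role, were called in both directions. With oxazolone 23 rose and 8 fell, and with urushiol 17 rose and 8 fell, at medians of 0.20 and 0.17. Over all genes 9.63% were called higher and 6.92% lower with oxazolone, and 9.96% and 6.43% with urushiol, at medians of 0.057 and 0.04. The lists were chosen with earlier results of these data known. Among 8 ligands and upstream signals 2 rose with each allergen. Il33, the alarmin of damaged epithelium, rose by 4.04 ± 0.29 with oxazolone and by 4.44 ± 0.29 with urushiol. Tslp, the epithelial cytokine that primes dendritic cells, rose by 3.02 ± 0.53 with urushiol (adjusted p = 0.012) and stood at 0.37 ± 0.53 with oxazolone (adjusted p = 0.66), and the test between the allergens did not pass (2.65 ± 0.53, adjusted p = 0.276). Csf2, the growth factor GM-CSF, rose by 0.50 ± 0.05 with oxazolone (adjusted p = 0.00212). Il5, the eosinophil growth factor, stood at 0.16 ± 0.11 and 0.10 ± 0.11. Il31, the itch cytokine of T cells, stood at -0.11 ± 0.05 and 0.03 ± 0.05, and no difference of either gene passed. Csf2, Il5 and Il31 lay above the median of their array on no array, so all were read in its dimmer part. For Il5 and Il31 the lack of a call is therefore no evidence of an unchanged level.

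Of 8 receptor genes 4 rose and 1 fell with oxazolone, and 2 rose and 1 fell with urushiol. Il13ra1, which pairs with the product of Il4ra in the signalling receptor for interleukin 13, rose by 1.91 ± 0.23 with oxazolone (adjusted p = 0.00328) and by 1.73 ± 0.23 with urushiol (adjusted p = 0.00451). Osmr and Il7r rose by 2.22 ± 0.35 and 1.83 ± 0.35 with oxazolone. With urushiol they stood at 1.16 ± 0.35 (adjusted p = 0.0666) and 0.94 ± 0.35 (adjusted p = 0.113). Neither passed between the allergens (adjusted p = 0.675 and 0.802). Il31ra, the receptor chain for interleukin 31, fell by 1.77 ± 0.26 and fell by 2.22 ± 0.26. The signalling genes split evenly with oxazolone, with 5 of 18 higher and 5 lower, and with urushiol 3 rose and 5 fell. Stat6 itself stood at -0.12 ± 0.14 (adjusted p = 0.598) and 0.18 ± 0.14 (adjusted p = 0.459). Jak2, a kinase of cytokine receptors, rose by 2.14 ± 0.20 and 1.06 ± 0.20, and the feedback inhibitor Socs1 rose by 0.59 ± 0.14 with oxazolone (adjusted p = 0.033) and stood at 0.17 ± 0.14 with urushiol (adjusted p = 0.463). Bcl6 and Irf4, transcription factors of lymphocytes, stood at -1.71 ± 0.25 and -1.27 ± 0.20 with oxazolone and at -1.78 ± 0.25 and -1.35 ± 0.20 with urushiol, and all 4 differences passed. Gata3 was not analysed here.

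Among 15 other target genes 5 rose and 1 fell with each allergen. Retnlg, counted among the 5, is also 1 of the 7 neutrophil markers above. Clec7a, the beta-glucan receptor dectin-1, rose by 6.37 ± 0.30 and 5.44 ± 0.30, Retnlg, a relative of Retnla that neutrophils make, by 3.10 ± 0.48 and 2.72 ± 0.48, and Postn, a matrix protein induced by interleukin 13, by 2.39 ± 0.32 and 2.67 ± 0.32. The macrophage lectin Mgl2, in contrast, fell by 1.78 ± 0.22 with oxazolone and fell by 1.53 ± 0.22 with urushiol, and the mannose receptor gene Mrc1 rose by 1.13 ± 0.27 with urushiol (adjusted p = 0.034) and stood at 0.66 ± 0.27 with oxazolone (adjusted p = 0.141). Of 9 further chemokine and receptor genes 5 rose with oxazolone and 2 with urushiol, Ccr3 of the eosinophil list among them in both. Ccl8, a ligand of CCR8, rose by 2.95 ± 0.60 and 3.17 ± 0.60, and Ccl7, another ligand of CCR3, rose by 4.14 ± 0.70 with oxazolone (adjusted p = 0.0114) and stood at 2.15 ± 0.70 with urushiol (adjusted p = 0.0814).

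**Figure D4:**
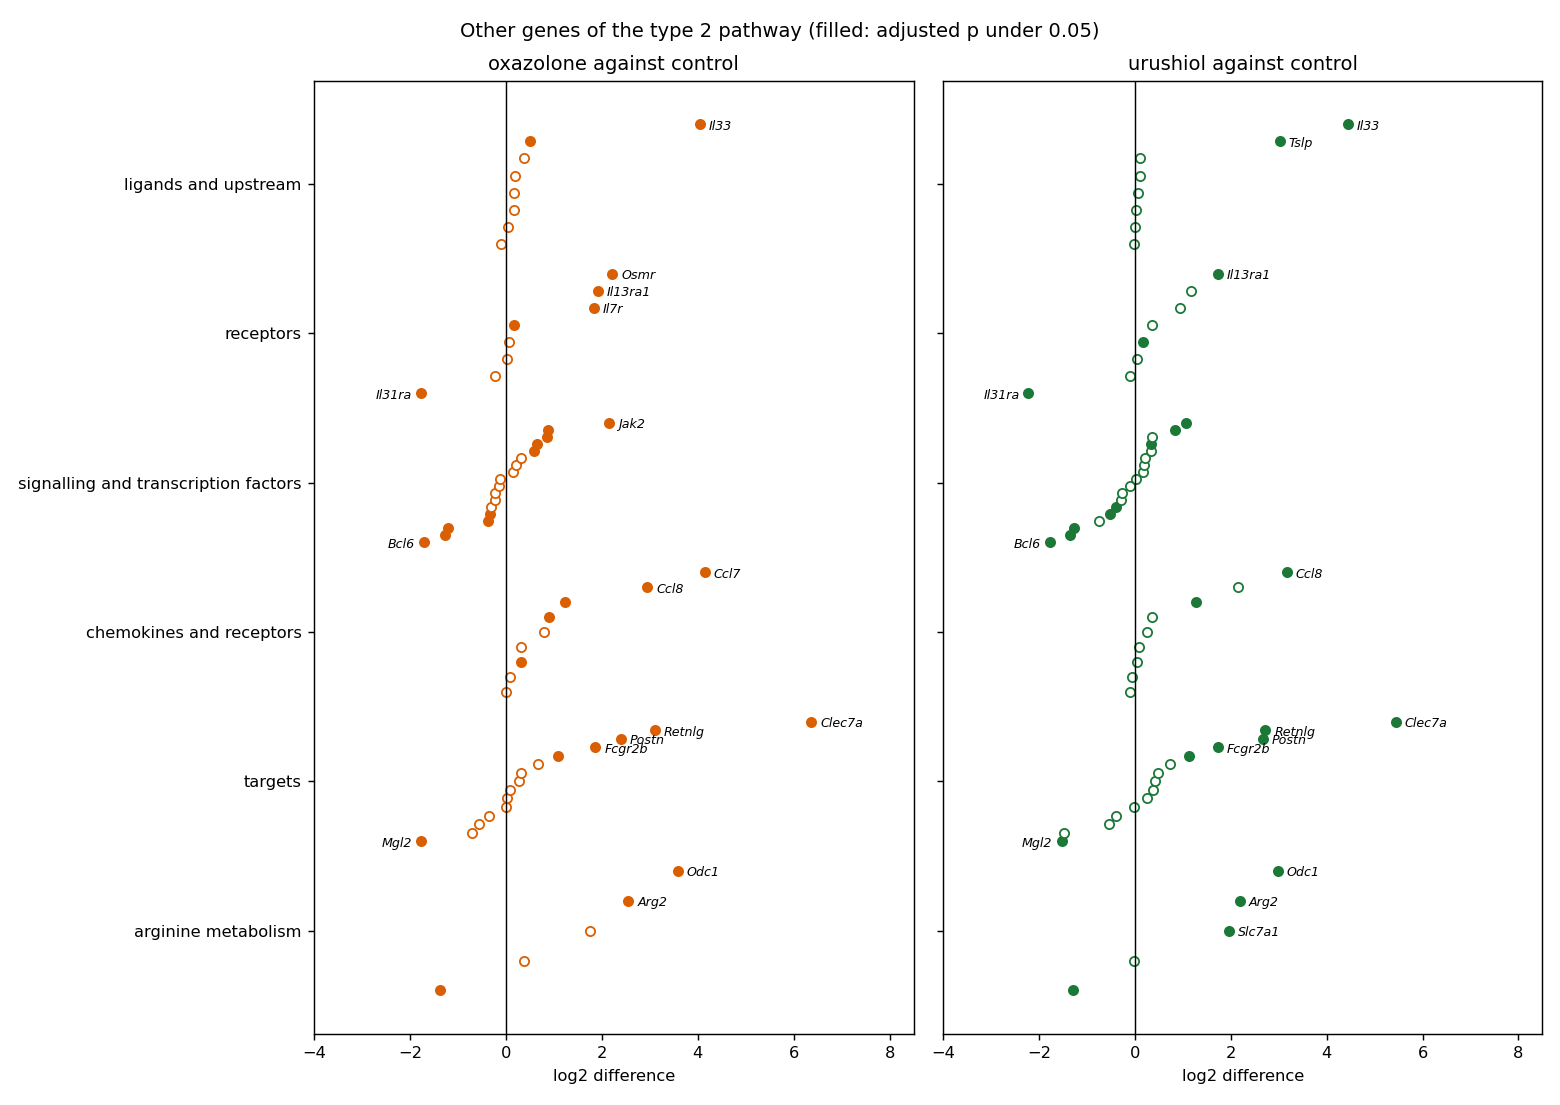
Log2 difference from control skin (x axes) of the 63 other measured pathway genes, in rows by role (y axis), for oxazolone (left) and urushiol (right), filled where the adjusted p is under 0.05 and named where such a change is at least 1.5. Il33 and Clec7a lie far to the right in both panels, and Il31ra, Bcl6 and Mgl2 to the left.

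By position, several of the 10 genes sit in clusters of related genes, taken here from the RefSeq order of protein-coding genes. Il4 and Il13 are next to each other, followed by Rad50, a DNA repair gene, and Il5, and in these 4 genes no difference from control passed (Rad50 stood at 0.15 ± 0.15 and 0.27 ± 0.15). Ccl11 lies between Ccl7 and Ccl12 in a cluster of monocyte chemokines. With oxazolone Ccl2, Ccl7, Ccl12 and Ccl8 rose by 3.70 ± 0.51, 4.14 ± 0.70, 4.08 ± 0.53 and 2.95 ± 0.60, each by more than Ccl11. With urushiol Ccl12 and Ccl8 rose by 2.60 ± 0.53 and 3.17 ± 0.60, and Ccl2 stood at 1.45 ± 0.51 (adjusted p = 0.101). Retnla lies between its relatives Retnlb and Retnlg, of which Retnlg rose, as given above, and Retnlb stood at 0.09 ± 0.12 and 0.26 ± 0.12. The gene before Retnlb is Trat1, an adaptor of the T cell receptor, which fell by 1.81 ± 0.08 with oxazolone and fell by 1.60 ± 0.08 with urushiol. Ccl24 lies beside Ccl26, which encodes eotaxin 3 and stood at 0.00 ± 0.06 and 0.05 ± 0.06. Il5, Retnlb and Ccl26 lay above the median of their array on no array, so all were read in its dimmer part.

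The genes nearest in pattern were those with the highest Pearson r over the 9 arrays, among 3334 genes with an SD of at least 0.5. The arrays are 3 groups of shared treatment, and r is given as a description. Il4ra was closest to Pxdc1 (0.996), Tnfrsf12a, the receptor for TWEAK (0.989), and Cyrib (0.986). Il13ra2 was closest to Timp1, an inhibitor of matrix proteases (0.98), the neutrophil collagenase Mmp8 (0.978) and the neutrophil chemokine Cxcl5 (0.975). Arg1 was closest to Samd12 (0.991), Fam162a (0.99) and the stefin family gene Cstdc3 (0.989). Retnla was closest to the ornithine aminotransferase Oat (0.983), the fatty acid oxidation enzyme Ech1 (0.983) and Ackr1, an atypical chemokine receptor of venules (0.981). Ccr4 was closest to Bbox1, an enzyme of carnitine synthesis (0.992), Adgrg2 (0.99) and the actin-severing protein Scin (0.984). Ccl11 had looser neighbours, Cytip (0.951), Gch1, the first enzyme of tetrahydrobiopterin synthesis (0.95), and Csrnp1 (0.935).

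Set directly against each other, the allergens gave no called difference in the 10 genes by limma, where 5 of 30142 genes (0.0166%) were called, 0.00664% higher and 0.00995% lower, and 1772 had an unadjusted p under 0.05. For 3 of the 10 genes the urushiol and oxazolone arrays did not overlap, all 3 with urushiol lower. Arrays without overlap were found for 9.74% of all genes (5.35% higher and 4.39% lower). The same 3 genes had an unadjusted p under 0.05. Ccr4 stood at -0.94 ± 0.21, urushiol minus oxazolone (unadjusted p = 0.0026, adjusted p = 0.353, 95% confidence interval of the difference -1.44 to -0.45), with all urushiol readings dim. Il4ra stood at -0.83 ± 0.29 (unadjusted p = 0.0248, adjusted p = 0.727, -1.52 to -0.14). Il13ra2 stood at -0.58 ± 0.23 (unadjusted p = 0.0402, adjusted p = 0.811, -1.13 to -0.03), and at -0.29 without oxazolone array 2 (adjusted p = 0.865). None of the 3 held up after adjustment. For the other genes the arrays overlapped, and the intervals show what the data leave possible: Arg1 -0.44 to 2.34, Retnla -1.72 to 2.51, Ccl24 -1.03 to 1.22, Ccl17 -1.26 to 0.34, Il13 -0.78 to 0.45, Ccl11 -0.70 to 0.29 and Il4 -0.26 to 0.36. Equal levels were not shown for any of them. With 3 arrays in each group the lowest p of an exact permutation test is 0.1, so single genes were not tested by it.

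**Figure D5:**
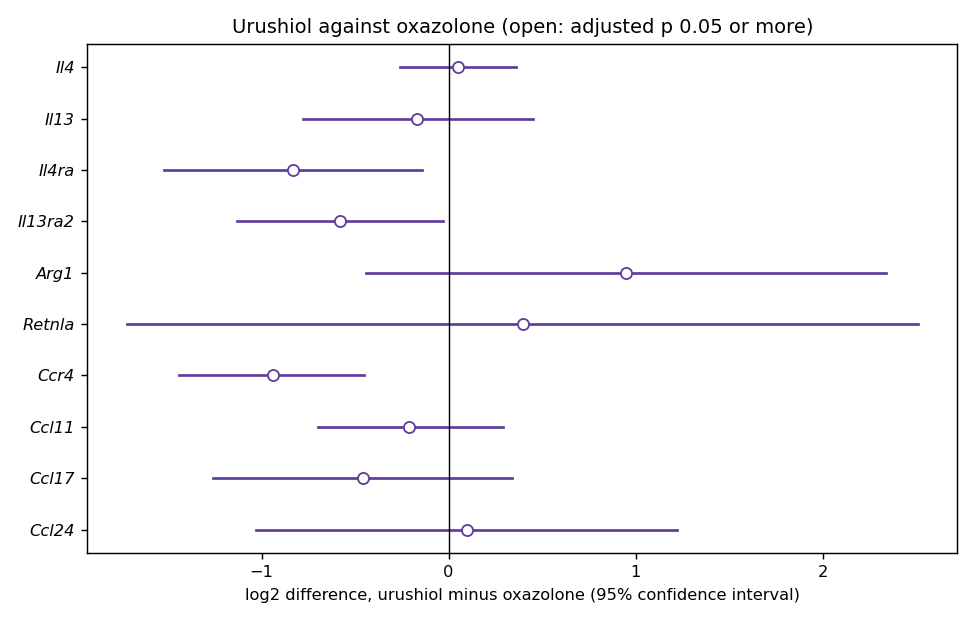
Log2 difference of urushiol minus oxazolone skin (x axis) with its 95% confidence interval for each of the 10 genes (y axis), with open points for an adjusted p of 0.05 or more. All points are open, and the intervals of Ccr4, Il4ra and Il13ra2 lie left of 0.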

How the data were processed

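Total RNA from 9 neck skins was hybridised to Affymetrix mouse arrays. Sample titles gave the group and replicate number of each. The authors deposited log2 expression values, with 1 value for each transcript cluster of each array. The submitters' processing notes name RMA, Affymetrix Expression Console 1.4 and Transcriptome Analysis Console without role or order, and no source used here gives a genome build.

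Leaving out 6732 array controls left 65956 clusters, of which 30604 had 1 gene symbol in the platform annotation, 2146 had several and 33206 had none. For 827 clusters the symbol was updated by gene ID from RefSeq's GRCm38.p6 tables, which also gave gene order and promoters. A gene with several clusters was represented by the one with the highest mean, and each of the 10 genes had 1. Array medians were 5.53 to 5.64. Precision is limited by the number of arrays (median standard error 0.113).

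The 9 arrays were fitted together in limma 3.58.1 under R 4.3.3, with lmFit and eBayes, and two-sided p-values were adjusted by Benjamini-Hochberg over 30142 genes. The script was tested on simulated data. The members and lists were chosen with earlier results of these data known. Named were all 10 members, up to 4 called genes per list, direction and comparison by size, 15 chosen pathway genes whatever their values (Gata3 and Chil3 among them were not analysed here), and the 3 nearest patterns of each called member. Genes named by position, Epx and Prg2 were chosen after their values were seen. Oxazolone and urushiol arrays of the same number deviated together, weakly, from their group means (r = 0.124 to 0.201). No label says that the numbers pair arrays, so the main fit held no block. Alternatives tried were the removal of dim genes, averaging a gene's clusters, quantile normalization, median centring, an intensity trend, robust variances, array weights, fits of 2 groups alone, a replicate block, and the omission of each array in turn.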

Additional observations from a re-analysis of the deposited data

How the results depend on the processing

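Of 564 repeats of a single gene's difference under an alternative, 520 kept direction and side of the threshold, 32 lost the call, 3 gained it and 9 changed sign, all 9 of them in differences that were not called. With control array 2 left out, Ccl24 stood at 0.03 for oxazolone and 0.12 for urushiol against control (lowest without 1 array -0.77 and -0.68). Between the allergens, Il4 stood at -0.02 with array weights, -0.01 without oxazolone array 1 and -0.05 without urushiol array 1, Il13 at 0.10 and Retnla at -0.23 without oxazolone array 3, and Ccl24 at -0.21 without oxazolone array 3 and -0.11 without urushiol array 2. The other ends of these ranges without 1 array were 0.13 for Il4, -0.37 for Il13, 0.82 for Retnla and 0.42 for Ccl24. Leaving out 1 array gave 3 to 4 higher and 1 to 2 lower genes for oxazolone, 2 to 3 and 1 to 2 for urushiol, and 0 between the allergens. With 2 groups alone 1 gene was lower for each allergen against control, since Retnla lost its calls, as did Ccl11 for oxazolone (adjusted p = 0.0854). With the replicate number as a block and 2 groups alone, 1 gene was higher and 1 lower for oxazolone, and 0 higher and 1 lower for urushiol, where limma called 1 higher and 4 lower genes in all. With the block and all 9 arrays, the one call of a member to change was that of Ccl11 for oxazolone (adjusted p = 0.0564). No label says that the numbers pair arrays. In their deviations from group means, 6 of 6 oxazolone and urushiol arrays correlated best with their own number, though weakly (r = 0.124 to 0.201). Between these 2 groups no member was called with or without the block, so there was no call to lose. Controls and arrays of the same number had r of -0.163 to 0.337 with oxazolone and -0.232 to 0.123 with urushiol. In each case 2 of 6 arrays correlated best with their own number. The filter on dim genes removed Il4 and Il13, so neither has a value there, and the other 8 passed it. Over all genes, 464 to 4749 were called higher and 244 to 3270 lower for oxazolone (main 2904 and 2085), 1 to 4932 and 4 to 3203 for urushiol (3003 and 1939), and 0 to 7 and 0 to 91 between the allergens (2 and 3). The share of higher calls moved from 58.2% to 42.0% after quantile normalization with oxazolone and from 60.8% to 49.5% with urushiol. Why results differed between settings was not tested.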

Other observations

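Ccl24 followed the replicate number in every group: array 2 was highest (8.15, 7.45 and 7.31 in control, oxazolone and urushiol), array 1 lay between (7.02, 6.78 and 6.91) and array 3 was lowest (6.55, 6.20 and 6.50). No other of the 10 genes kept 1 order of its numbers in all 3 groups, which 2.34% of all 30142 genes did. With the replicate number as a block over all 9 arrays the adjusted p of Ccl24 was 0.129 for oxazolone and 0.23 for urushiol, against 0.566 and 0.696 without it. Ccl24 was picked here for following that number, so a lower p with the block follows from the choice and is no test of the pattern.

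Among the oxazolone arrays, array 3 had the highest Il13 (6.22), Il4ra (14.06), Ccl11 (11.73) and Ccl17 (7.52) and the lowest Il13ra2 (7.16), Retnla (6.15), Ccr4 (5.28) and Ccl24 (6.20). Its T cell marker mean of 6.75 was also the highest of the 3, beside 6.55 and 5.97. Array 2 had the highest Il4 (5.06), Il13ra2 (8.13), Retnla (8.26), Ccr4 (6.09) and Ccl24 (7.45). The lowest Il13 (5.43), Il4ra (13.29) and Arg1 (10.46) were also on array 2. Its hair follicle mean was 13.88, beside 11.09 and 12.18.

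Irf1, an interferon regulatory factor that is the protein-coding gene after Il5 in the cluster of Il4 and Il13, rose by 3.87 ± 0.44 with oxazolone (adjusted p = 0.00305) and stood at -0.23 ± 0.44 with urushiol (adjusted p = 0.784), and the difference between the allergens did not pass (-4.10 ± 0.44, adjusted p = 0.0767). Cx3cl1, the chemokine gene next to Ccl17, rose by 0.71 ± 0.10 with oxazolone (adjusted p = 0.00708) and stood at -0.06 ± 0.10 with urushiol (adjusted p = 0.771), at -0.76 ± 0.10 between the allergens (adjusted p = 0.107). These patterns were noticed in the values and were not tested further.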
